A study of Mus musculus with 2 samples.

Results

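The genes described here are 41 that copy the genome in S phase, given as a fixed list of gene symbols, out of the 32285 genes in the count tables. They were chosen by name and not by their values, and all 41 were detected in both libraries. Single-cell RNA was read from pancreatic tumours of mice at 6 weeks of age, as 1 library per group. EL1 mice (strain EL1-Luc/EL1-Tag, an FVB/N line) carry luciferase and the SV40 T antigen under the elastase I promoter, which is active in pancreatic acinar cells. WTg mice (EL1-Luc/EL1-Tag x CAG-Mettl3) carry both of these and also the Mettl3 open reading frame under the CAG promoter, which is active in most tissues. The CAG-Mettl3 line comes from C57BL/6, so strain and transgene cannot be told apart here. How many animals went into each library and their sex are not stated. Both libraries came from digested tumour sorted for viable cells.

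After cells with few genes, few molecules or much mitochondrial RNA were removed, 1113 EL1 cells and 905 WTg cells were left, with a median of 26543 and 34836 UMIs (unique molecular identifiers, each standing for 1 captured RNA molecule). The kept cells held 37961287 UMIs in EL1 and 33007683 in WTg. The Mettl3 row of the table, which cannot separate transgene from native transcript, stood at 15.1 CPM (UMIs of a gene per 1000000 UMIs of the cells summed) in EL1 and 66.7 CPM in WTg. The libraries shared 15 barcodes as deposited and 0 among the kept cells. The labels call the cells epithelial, and all 4 epithelial markers checked were detected in both libraries, led by the keratin Krt8 at 6198 and 5878 CPM. Of 6 ductal markers 5 were detected in both, led by Sox9 at 233 and 169 CPM, and the channel gene Cftr had 0 UMIs in both. The 9 acinar enzyme genes summed to 103957 and 118569 CPM. Of 19 clusters formed without these genes, 10 drew at least 90% of their cells from 1 library, and they held 66.3% of all kept cells, so the libraries were compared over cells that sat largely in different clusters. With 1 library per group no difference between EL1 and WTg could be tested, and cells are not replicates, so contrasts within a library were not tested either. Intervals below are 95% intervals that cover counting error only, and a difference of 2-fold or more marks a gene, among genes with at least 10 UMIs over the groups compared. For ratios, shares over all genes were taken only for the 2-fold mark in the comparisons as first made, not for interval counts or changed settings.

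Replication begins in G1, when the origin recognition complex, Cdc6 and Cdt1 load the MCM ring onto DNA, and geminin (Gmnn) later blocks Cdt1 so that each origin fires once per cycle. In S phase Cdc45 and the GINS complex turn the ring into an active helicase, primase and the polymerases copy both strands, and Pcna, loaded by replication factor C, clamps polymerases to the template. Many of these genes are known targets of E2F transcription factors, which the retinoblastoma protein holds in check. SV40 large T antigen, the oncogene of both mouse lines, binds the retinoblastoma protein. These facts are background and were not measured here.

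Summed over the 41 genes, EL1 cells held 1894 CPM (1879.7 to 1907), and WTg cells held 1768 CPM (1754 to 1783). Cells were then split by Top2a and Mki67, proliferation genes that are not among the 41. A cell with at least 1 UMI of either was called cycling, which gave 553 of 1113 EL1 cells (49.7%, exact interval 46.7 to 52.7%) and 459 of 905 WTg cells (50.7%, 47.4 to 54.0%). Cycling cells were deeper than non-cycling cells, with medians of 37148 against 19998.5 UMIs in EL1 and 42723 against 23468.5 UMIs in WTg. The summed level was 2251 CPM in cycling and 1205 CPM in non-cycling cells of EL1, and 2091 and 1133 CPM in those of WTg. Cells called non-cycling therefore still held replication transcripts, and the cells of both classes overlapped widely. The call means only that no Top2a or Mki67 UMI was read, so it can include cycling cells in which both were missed. With cells thinned to 2000 UMIs the cycling share was 19.1% in EL1 and 21.8% in WTg. Per 10000 UMIs of a cell, the middle 80% of EL1 cells ran from 3.91 to 25.4 molecules of these genes when non-cycling and from 8.30 to 45.4 when cycling, and the WTg cells from 3.02 to 28.7 and from 7.18 to 43.2. In the barcodes that the cell filter had removed, the summed level was 1123 CPM in EL1 and 991 CPM in WTg, so RNA of these genes was also present outside the cells analysed.

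**Figure D1:**
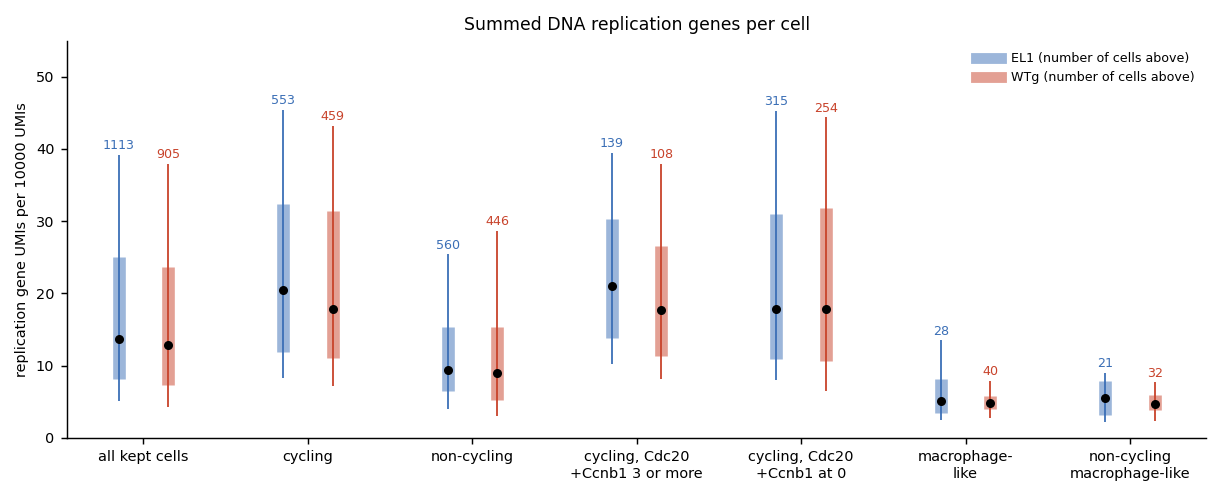
Molecules of the 41 replication genes per 10000 UMIs of a cell (y axis) in each class of cells, EL1 in blue and WTg in red. Dots are medians, thick bars the middle 50% of cells and thin lines the middle 80%, with the number of cells above; EL1 and WTg overlap in every class, and macrophage-like cells lie lowest, with medians of 5.09 and 4.75.

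The first comparison set cycling against non-cycling cells within each library. In EL1 all 41 genes were higher in cycling cells, with a median log2 ratio of 0.98 against 0.046 over all genes, and 19 of the 41 were higher by 2-fold or more, against 7.05% of all genes. In WTg all 41 were higher as well, with a median of 0.91 against 0.055 over all genes, and 16 of the 41 passed 2-fold, against 6.32% of all genes. Counting intervals lay above 0 for 41 genes in EL1 and 40 in WTg, the exception being Orc1. When every cell was first thinned to 2000 UMIs before Top2a and Mki67 were read, 38 of 41 remained above 0 in each library and 13 and 10 passed 2-fold. Weighting each cell equally left 40 of 41 above 0 in WTg, with Orc1 at -1.32. Without the blood, macrophage-like and endothelial clusters, 21 of 41 genes in EL1 and 13 in WTg passed 2-fold. The shares of 7.05% and 6.32% belong to the gate as first read, and none was taken for the intervals or these other settings.

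**Figure D2:**
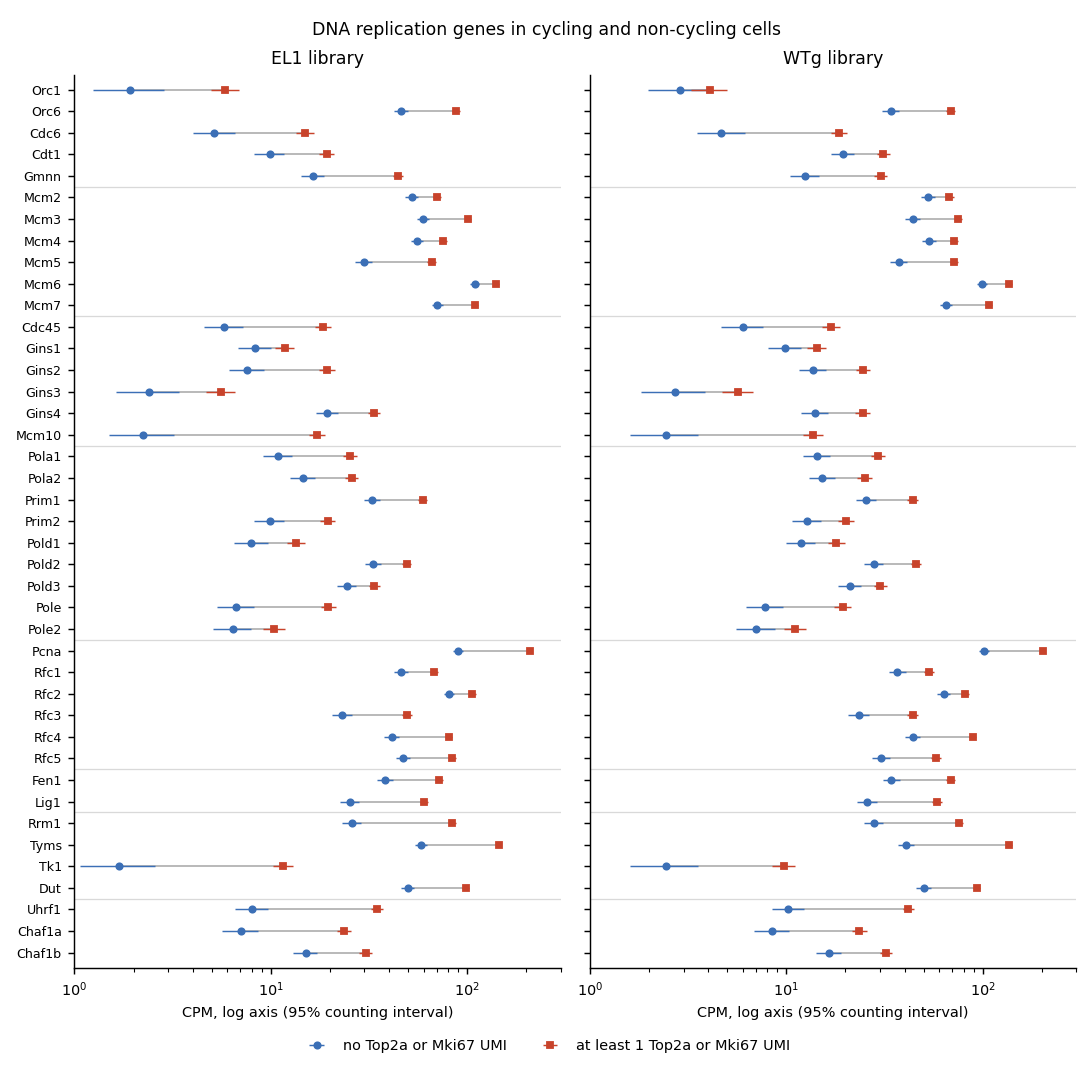
Level of each replication gene in non-cycling cells (blue dots) and cycling cells (red squares) of EL1 (left) and WTg (right), as CPM on a log axis with 95% counting intervals. Grey lines separate the roles, from origin licensing at the top to chromatin copying at the bottom; the MCM ring genes have short gaps, and Mcm10, Tk1 and Uhrf1 have long ones.

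Among the licensing genes, Orc6, a subunit of the origin recognition complex and the licensing gene with most UMIs, was at 46.2 CPM in non-cycling and 87.7 CPM in cycling cells of EL1 and at 34.1 and 68.7 CPM in those of WTg. In EL1, Cdt1 measured 9.86 CPM without and 19.3 CPM with a Top2a or Mki67 UMI, and in WTg 19.4 and 31.2 CPM. Cdt1, which delivers the MCM ring to origins, thus had the higher level in WTg in both classes of cell, and its cycling ratio in WTg came to -0.044 under the thinned gate. For Gmnn, cycling cells of EL1 and WTg held 44.4 and 30.3 CPM, and non-cycling cells 16.3 and 12.5 CPM. Geminin, the inhibitor of Cdt1, showed the opposite order between the libraries, and was higher by over 2-fold in cycling cells in each library, with log2 ratios of 1.44 (1.23 to 1.66) and 1.28 (1.01 to 1.55). Orc1 stood at 1.93 CPM in non-cycling and 5.84 CPM in cycling cells of EL1, and at 2.88 and 4.07 CPM in those of WTg. Orc1, an ATP-binding subunit of the origin recognition complex, had the fewest UMIs of the licensing genes, and its cycling ratio was 1.60 (0.98 to 2.28) in EL1 and 0.50 (-0.098 to 1.13) in WTg. Cdc6, the loader that works with Cdt1, had ratios of 1.53 and 1.99.

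The 6 genes of the MCM ring, the core of the replicative helicase, differed least. Their median cycling ratio was 0.54 in EL1 and 0.59 in WTg, and 1 of 6 passed 2-fold in EL1 and 0 of 6 in WTg. In EL1, Mcm6 measured 109 CPM without and 139.8 CPM with a Top2a or Mki67 UMI, and in WTg 99.5 and 136 CPM. For Mcm2, cycling cells of EL1 and WTg held 69.8 and 67.7 CPM, and non-cycling cells 52.1 and 52.6 CPM. Mcm6 and Mcm2 were thus well detected in cells without a Top2a or Mki67 UMI, and their ratios were among the lowest of the 41, at 0.36 and 0.45 for Mcm6 and 0.42 and 0.37 for Mcm2. With the gate read after thinning, the signs turned, to -0.083 and -0.18 for Mcm6 and -0.083 and -0.10 for Mcm2, so no direction can be given for these genes. Mcm4 stood at 55.6 CPM in non-cycling and 75.2 CPM in cycling cells of EL1, and at 53.5 and 71.3 CPM in those of WTg. Mcm4 also turned in EL1 under the thinned gate, to -0.065. In EL1, Mcm3 measured 59.6 CPM without and 101 CPM with a Top2a or Mki67 UMI, and in WTg 44.0 and 75.2 CPM. For Mcm7, cycling cells of EL1 and WTg held 109.5 and 108 CPM, and non-cycling cells 70.4 and 65.0 CPM. Mcm3 and Mcm7 were higher in cycling cells by 0.76 and 0.77 and by 0.64 and 0.73 on the log2 scale. Mcm5 stood at 29.7 CPM in non-cycling and 65.9 CPM in cycling cells of EL1, and at 37.3 and 71.4 CPM in those of WTg. Mcm5 had the largest ratio of the ring, at 1.15 (0.99 to 1.31) in EL1 and 0.94 (0.78 to 1.10) in WTg.

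Genes that activate the helicase differed more. Mcm10, which helps the loaded ring to open and start unwinding, had the largest ratio of the 41 in both libraries. In EL1, Mcm10 measured 2.23 CPM without and 17.2 CPM with a Top2a or Mki67 UMI, and in WTg 2.43 and 13.7 CPM. The log2 ratios were 2.94 (2.40 to 3.54) and 2.49 (1.92 to 3.12). Cdc45, which joins the ring to GINS, had ratios of 1.68 and 1.49. The 4 GINS genes encode subunits of a single complex but did not differ equally. Gins2 had ratios of 1.36 and 0.85, Gins3 of 1.22 and 1.07, and Gins1 of 0.50 and 0.55. For Gins4, cycling cells of EL1 and WTg held 33.6 and 24.5 CPM, and non-cycling cells 19.3 and 13.9 CPM. Gins4, the most counted of the 4, had ratios of 0.80 and 0.81.

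Polymerase and primase genes were higher in cycling cells by a median of 0.83 in EL1 and 0.71 in WTg on the log2 scale, and 2 of 9 passed 2-fold in each library. These were Pole, the catalytic subunit of the leading strand polymerase (1.57 and 1.31), and Pola1, the catalytic subunit of the polymerase that extends primers (1.22 and 1.04). Prim1 stood at 32.8 CPM in non-cycling and 59.3 CPM in cycling cells of EL1, and at 25.4 and 44.1 CPM in those of WTg. Prim1, which makes the RNA primers, was the most counted of the 9, with ratios of 0.85 and 0.79. The accessory subunits Pold2 and Pold3 of the lagging strand polymerase differed less, by 0.57 and 0.71 and by 0.46 and 0.52.

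In EL1, Pcna measured 89.6 CPM without and 208 CPM with a Top2a or Mki67 UMI, and in WTg 101 and 202 CPM. Pcna, the sliding clamp, was the most counted of the 41 genes, and its ratio was 1.22 (1.12 to 1.31) in EL1 and 0.99 (0.90 to 1.09) in WTg. Its loader, replication factor C, was less uniform. For Rfc2, cycling cells of EL1 and WTg held 106 and 81.6 CPM, and non-cycling cells 81.0 and 63.5 CPM. Rfc5 stood at 47.2 CPM in non-cycling and 84.0 CPM in cycling cells of EL1, and at 30.5 and 57.9 CPM in those of WTg. Rfc2, shared by all forms of the loader, had ratios of 0.39 and 0.36, close to those of the MCM ring, while Rfc3 reached 1.10 and 0.91 and Rfc4 0.97 and 1.01. On the lagging strand, Fen1, the nuclease that trims RNA-primed flaps, was at 38.2 and 71.5 CPM in EL1 and at 34.2 and 68.8 CPM in WTg. Lig1, the ligase that seals the fragments, had ratios of 1.26 and 1.18.

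Genes of nucleotide supply and of chromatin copying differed most between the classes, by the median of their role. In EL1, Tyms measured 58.3 CPM without and 145 CPM with a Top2a or Mki67 UMI, and in WTg 40.5 and 135 CPM. Tyms, which makes thymidylate, was higher by over 2-fold in cycling cells of both libraries, with log2 ratios of 1.31 (1.20 to 1.43) and 1.74 (1.60 to 1.89). For Tk1, cycling cells of EL1 and WTg held 11.5 and 9.73 CPM, and non-cycling cells 1.70 and 2.43 CPM. Tk1, the salvage thymidine kinase, had ratios of 2.77 (2.14 to 3.46) and 2.00 (1.42 to 2.64) from levels of 22 and 27 UMIs in non-cycling cells. Rrm1, the large subunit of ribonucleotide reductase, had ratios of 1.70 and 1.44, and Dut, which clears dUTP, of 0.98 and 0.90. Uhrf1 stood at 8.01 CPM in non-cycling and 34.7 CPM in cycling cells of EL1, and at 10.2 and 41.9 CPM in those of WTg. Uhrf1, which brings DNA methylation to newly copied strands, had ratios of 2.11 (1.82 to 2.42) and 2.03 (1.75 to 2.32). The chromatin assembly factor genes Chaf1a and Chaf1b, which place histones behind the fork, had ratios of 1.75 and 1.48 and of 1.02 and 0.97.

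A list of 47 further genes of origins, forks, nucleotide supply and G1/S control was set beside the 41. Their median cycling ratio was 0.82 in EL1 and 0.81 in WTg, and 19 and 18 of 47 passed 2-fold. The highest were Rrm2, the small subunit of ribonucleotide reductase (3.38 and 3.49), the cyclin Ccne1 (3.23 and 3.42) and the histone chaperone Asf1b (3.102 and 3.86). Rrm2 and Rrm1, whose products form a single enzyme, stood at 12.1 and 25.8 CPM in non-cycling EL1 cells and at 126 and 83.9 CPM in cycling ones. The lowest were the repressive E2F factor E2f4 (-0.21 and -0.027), the origin subunit Orc4 (-0.096 and 0.041) and the small polymerase subunit Pold4 (-0.14 and -0.46). Pold1, the catalytic partner of Pold4, was at 0.77 and 0.60, so genes of a single enzyme stood apart.

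Because so many of the 41 were higher together, their promoters were searched for letters that E2F factors are known to bind. RefSeq promoters on GRCm38.p6, running from 250 bases before to 50 bases after the start, were matched by symbol for 33 of the 41 genes. The words searched on both strands were TTTCCCGC, TTTGGCGC, TTTCGCGC and TTTGCCGC. They occurred in 15 of 33 replication genes (45.5%), in 13 of 41 of the further genes with a promoter (31.7%) and in 704 of 27025 genes in all (2.60%). CCAAT, the box read by NF-Y, was found on either strand in 57.6% of the 33 and 41.1% of all genes, and TTTGAA, a letter run of the cell cycle homology region, in 15.2% and 20.2%. The following 30-base windows are examples that hold the word before the RefSeq start, in genes of origin licensing, the MCM ring and chromatin copying. They read 5′ to 3′ on the strand of the gene, with the 8-base word, or its reverse complement, in capitals and its first base counted from the start.
Orc1, chr4:108579416-108579445, plus strand, word from -27: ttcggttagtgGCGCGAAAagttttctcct
Cdc6, chr11:98908002-98908031, plus strand, word from -138: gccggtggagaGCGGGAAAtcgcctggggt
Mcm5, chr8:75109345-75109374, plus strand, word from -153: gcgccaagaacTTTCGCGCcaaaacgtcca
Mcm6, chr1:128359797-128359826, minus strand, word from -110: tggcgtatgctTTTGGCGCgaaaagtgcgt
Mcm7, chr5:138172030-138172059, minus strand, word from -165: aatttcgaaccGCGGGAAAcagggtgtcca
Uhrf1, chr17:56304117-56304146, plus strand, word from -185: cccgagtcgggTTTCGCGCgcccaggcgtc
In the Mcm5 and Mcm6 windows a second such word on the other strand overlaps the capitals. By the gene bounds of GENCODE M21, whose starts differ, the words shown for Orc1, Cdc6, Mcm7 and Uhrf1 lie inside the gene. A match is only a run of letters, and binding was not measured. By whether a gene had a word, the median cycling ratio was 1.10 with and 0.97 without a word in EL1, and 0.77 and 1.0005 in WTg. Mcm6, with 3 such words, had one of the smallest ratios, and Mcm10, with none in this window, had the largest in both libraries. Uhrf1, with a word, was at 2.11 and 2.03. These genes were picked for their ratios, and a link between word and ratio was not tested.

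Cycling cells were then divided by Cdc20 and Ccnb1, genes of G2 and mitosis that are not among the 41. Cells with at least 3 UMIs of the pair numbered 139 in EL1 and 108 in WTg, and cells with 0 numbered 315 and 254. This split was added after the data had been seen, and the first class was deeper. The median depth was 56586 against 30009 UMIs in EL1 and 54908.5 against 39189.5 UMIs in WTg. The split was not repeated at equal depth or under any other setting. The summed level hardly differed, at 2213 and 2122 CPM in EL1 and 2017 and 2107 CPM in WTg. Beneath that sum the genes went in different directions. The median log2 ratio of the 41 was 0.14 in EL1 and -0.035 in WTg, against 0.045 and 0.13 over all genes. In EL1 2 of 41 were higher by 2-fold or more and 0 lower, against 7.71% and 3.46% of all genes. In WTg 2 were higher and 1 lower, against 8.7% and 4.24%.

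All 6 MCM ring genes were lower in the Cdc20 and Ccnb1 class in both libraries, with intervals below 0 for 5 of 6 in EL1 and 6 of 6 in WTg. Mcm4 stood at 47.7 CPM with Cdc20 and Ccnb1 and 88.7 CPM without in EL1, and at 49.0 and 83.5 CPM in WTg, giving log2 ratios of -0.89 (-1.06 to -0.73) and -0.77 (-0.96 to -0.58). For Mcm6 the ratios were -0.66 and -0.96, and for Mcm2 -0.49 and -0.92. The loaders Cdc6 (-0.34 and -0.97) and Cdt1 (-0.33 and -0.65) were lower too, whereas Gmnn, the inhibitor of Cdt1, was higher (0.74 and 0.78). The gene below 2-fold in WTg was Pole2 (-1.03, against -0.45 in EL1). All 4 nucleotide supply genes were higher. Tk1 stood at 20.5 and 4.68 CPM in EL1 and 18.8 and 4.65 CPM in WTg, with ratios of 2.13 (1.68 to 2.60) and 2.01 (1.52 to 2.53). Rrm1 was at 0.999 and 0.83, and Tyms at 0.67 and 0.66. Mcm10, the only other gene past 2-fold, was at 1.05 and 1.35. Of the 6 helicase activation genes, 5 were above 0 in EL1 and 4 in WTg, with Cdc45 at 0.86 and 0.54, Gins3 at 0.79 and 0.95, Gins4 at 0.52 and 0.51, Gins2 at 0.16 and -0.033 and Gins1 at -0.16 and -0.063, so Gins1 overlapped the range of the ring in EL1. Pcna was at -0.15 and -0.25. The genes printed here were chosen after their values were seen.

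**Figure D3:**
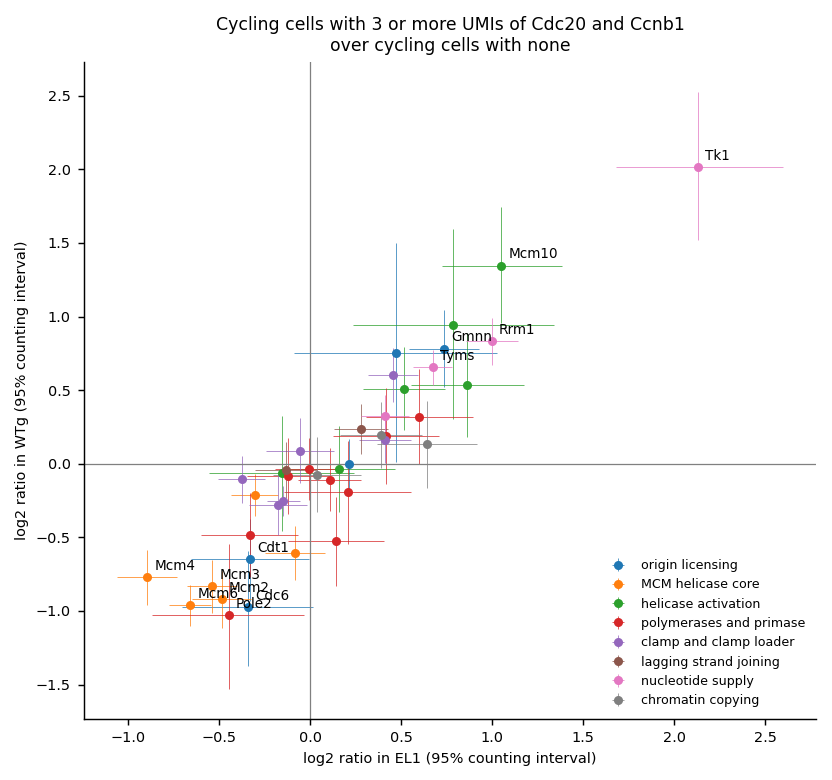
Log2 ratio of each replication gene between cycling cells with at least 3 UMIs of Cdc20 and Ccnb1 and cycling cells with none, in EL1 (x axis) and WTg (y axis), coloured by role, with 95% counting intervals. MCM ring genes (orange) lie below 0 in both libraries, and Tk1, Mcm10 and Rrm1 lie at the upper right.

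The second comparison set WTg against EL1. Over all kept cells the median log2 ratio of the 41 genes was -0.056, against -0.14 over all genes. None of the 41 (0) differed by 2-fold or more, while 10.1% of all genes were higher and 6.9% lower by that much. In cycling cells the median was -0.045 against -0.15, again with 0 of 41 past 2-fold in either direction, against 8.05% of all genes higher and 7.32% lower. In non-cycling cells it was 0.059 against -0.13, with 0 of 41 past 2-fold, against 10.3% and 6.86%, and the median turned to -0.019 with the gate read after thinning. In these sums each of the 41 thus differed by less than 2-fold between the libraries. The shares over all genes, here and in the other comparisons, include genes with as few as 10 UMIs, whose ratios carry more counting error. At least 50 UMIs were held by all 41 genes over all and in cycling cells and by 40 in non-cycling cells. The shares were thus not matched by count. Weighted equally by cell, Cdt1, Orc1, Gins3 and Mcm10 passed 2-fold upward in non-cycling cells. Scaling by trimmed means (TMM) raised every WTg to EL1 ratio by 0.13 over all cells, 0.15 in cycling and 0.13 in non-cycling cells, which put the medians at 0.077, 0.11 and 0.19, so the signs of genes near 0 depend on the scaling. Genes above 0 then numbered 27, 28 and 28 of 41 in place of 16, 13 and 25, and 1 gene, Cdt1, passed 2-fold in non-cycling cells, as it also did among cells of 10000 UMIs or more. Markers of other cell types differed as well, the 11 macrophage markers summing to 435 and 949 CPM in EL1 and WTg and the 6 endothelial markers to 21.3 and 94.7 CPM. With those clusters and blood cells removed the medians were -0.018 over all, -0.046 in cycling and 0.10 in non-cycling cells, and Cdt1 passed 2-fold in the last.

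Cdt1 had the highest ratio of the 41 over all, in cycling and in non-cycling cells. It stood at 16.0 CPM in EL1 and 27.2 CPM in WTg over all cells, and the log2 ratio was 0.70 (0.53 to 0.87) in cycling and 0.98 (0.65 to 1.30) in non-cycling cells. Across the clusters with at least 60 cells Cdt1 ranged from 9.67 to 36.3 CPM in EL1 and from 21.2 to 52.2 CPM in WTg. The overlap came from a single EL1 cluster, led by the gene Atp4b, which held the 36.3 CPM from 122 UMIs. Every other EL1 cluster of that size lay below the lowest WTg cluster. The 52.2 CPM in WTg rested on 22 UMIs. Gmnn, which inhibits Cdt1, was among the lowest, at 34.8 CPM in EL1 and 24.3 CPM in WTg, with ratios of -0.55 (-0.69 to -0.41) and -0.39 (-0.71 to -0.071). Its cluster range was 14.3 to 112 CPM in EL1 and 16.7 to 44.0 CPM in WTg. The 112 CPM, from 377 UMIs, was in the same Atp4b cluster of EL1, and the next EL1 cluster was at 65.6 CPM. The remaining EL1 clusters of that size lay from 14.3 to 29.8 CPM, within or below the WTg range. Gins2 (0.35 (0.17 to 0.53) and 0.86 (0.48 to 1.24)) and Pold1, the catalytic subunit of the lagging strand polymerase (0.41 (0.20 to 0.63) and 0.58 (0.20 to 0.97)), were also higher in WTg, although Pold1 came to -0.00062 in cycling cells when the gate was read after thinning. Genes of the same complexes did not share this. Gins4 was at -0.46 and -0.47 and Gins1 at 0.28 and 0.24, and Pold2 was at -0.11 and -0.25.

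Rfc5, a small subunit of the clamp loader, was lower in WTg at 71.4 CPM in EL1 and 48.6 CPM in WTg, with ratios of -0.54 (-0.64 to -0.44) and -0.63 (-0.83 to -0.44) and cluster ranges of 58.1 to 134 CPM and 40.4 to 88.3 CPM. Orc1 was lower in cycling cells (-0.52 (-0.92 to -0.13)) but at 0.58 (-0.22 to 1.39) in non-cycling ones, where it rested on 25 and 32 UMIs. In the MCM ring Mcm3 was lower in both classes (-0.43 and -0.44), Mcm5 was higher (0.12 and 0.33, but -0.058 in cycling cells under the thinned gate), and Mcm2, Mcm4, Mcm6 and Mcm7 lay between -0.13 and 0.014. Orc6 (-0.35 and -0.44) and Prim1 (-0.43 and -0.37) were lower, Uhrf1 was at 0.27 and 0.35, and Pcna at -0.045 and 0.18. Tyms parted by class, at -0.094 (-0.16 to -0.024) in cycling (0.057 under TMM) and -0.53 (-0.70 to -0.35) in non-cycling cells. Over all cells the counting interval lay above 0 for 9 genes and below 0 for 15, where the median over all genes was -0.14. The share of all genes with such intervals was not taken, so these counts are not read as particular to the 41. None of these values has a replicate. Of the 47 further genes, the lowest in cycling cells were Rpa3 (-0.81), Pold4 (-0.63) and Tipin (-0.59) and the highest Cdc25a (0.33), E2f7 (0.24) and Cdk2 (0.21).

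**Figure D4:**
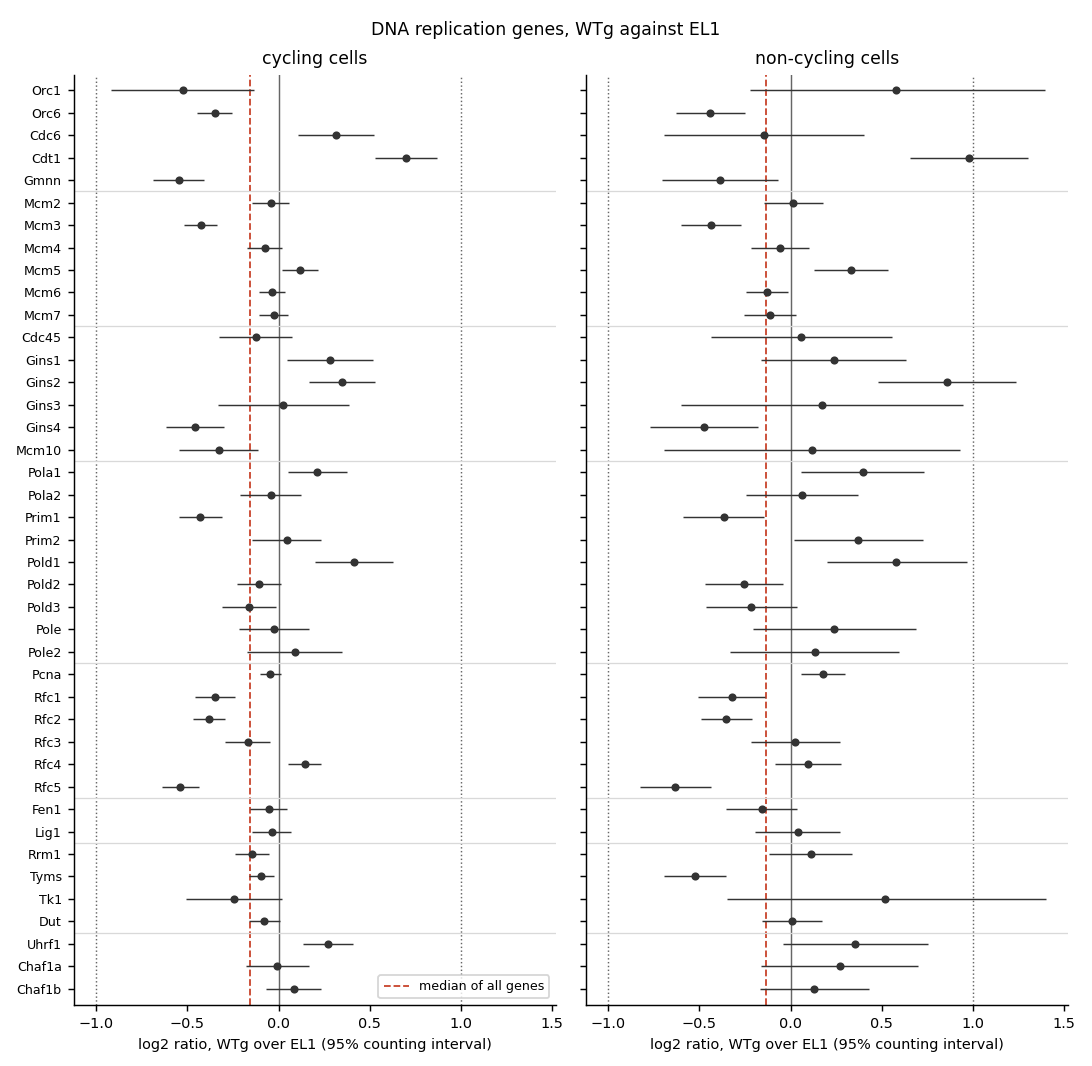
Log2 ratio of WTg over EL1 for each replication gene in cycling (left) and non-cycling cells (right), with 95% counting intervals, 1 library per group. The dashed red line is the median over all genes, dotted lines mark 2-fold, and no dot lies beyond them; Cdt1 lies highest in both panels.

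Macrophages of the tumour served as a further class to compare. A single cluster, formed without the replication genes, held macrophage-like cells, 28 in EL1 and 40 in WTg. All 11 macrophage markers were detected in it, with a summed level of 29733 and 28467 CPM, against 45.4 and 116 CPM in the other cells. The summed replication level was 1248 CPM in EL1 and 839 CPM in WTg, against 1902 and 1796 CPM in the other cells. The median log2 ratio of the 41 was -0.74 in EL1 and -1.30 in WTg, against 0.26 and 0.17 over all genes. In EL1 17 of 41 were lower by 2-fold or more, against 18.7% of all genes, and in WTg 28 of 41, against 21.7%. Orc1 had 0 UMIs in this cluster of both libraries and enters these figures as a bound. Few cells carried much of the sum. Of the 622 UMIs of the 41 genes in EL1 macrophage-like cells 403 (64.8%) lay in 2 cells with at least 30 UMIs of Top2a and Mki67, and of the 814 in WTg 373 (45.8%) lay in 1 such cell. In EL1 the other macrophage-like cells held 538 CPM (469.5 to 615), and in WTg 488 CPM (444 to 536). Without every macrophage-like cell that had a Top2a or Mki67 UMI the medians were -1.85 and -2.03, and 28 and 33 of 41 genes were lower by 2-fold or more. The cells that these were set against still included cycling ones. No share over all genes was taken for this setting, so these counts are not read as particular to the 41. Among macrophage-like cells with no Top2a or Mki67 UMI, 21 in EL1 and 32 in WTg, the summed level was 512 CPM (432 to 603) and 511 CPM (457 to 571), against 1221 and 1170.0 CPM in other non-cycling cells. In this class 15 of 41 genes had 0 UMIs in EL1 and 5 in WTg, among them Orc1, Cdc6, Mcm10 and Uhrf1 in both, and a count of 0 allows up to 10.7 and 4.79 CPM.

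Tk1, Cdt1 and Pcna were the genes with an interval above 0 in EL1, and Tk1 alone in WTg. Cdt1 was at 34.1 CPM in macrophage-like and 15.8 CPM in other cells of EL1, a ratio of 1.11 (0.32 to 1.80) from 17 UMIs, and at 23.7 and 27.3 CPM in WTg, a ratio of -0.21 (-0.87 to 0.39). Its level in macrophage-like cells was thus not the higher one in WTg. Pcna was at 223 CPM in macrophage-like and 167 CPM in other cells of EL1 and 159.8 and 168 CPM in WTg. Here too a few cells counted. The 2 EL1 cells with at least 30 UMIs of Top2a and Mki67 held 7 of 17 Cdt1 and 47 of 111 Pcna UMIs. In WTg 1 such cell held 6 of 23 Cdt1 and 46 of 155 Pcna UMIs. Mcm6 was at 60.2 and 130.2 CPM in EL1 and 26.8 and 127 CPM in WTg, and Tyms at 30.1 and 116 CPM and at 20.6 and 106 CPM. Mcm6 and Tyms were therefore low in macrophage-like cells of both libraries while Pcna was closer to the level of the other cells. Tk1, the salvage thymidine kinase, had the highest ratio. It stood at 76.2 CPM against 7.26 CPM in EL1 and 51.5 against 5.93 CPM in WTg, with log2 ratios of 3.39 (2.86 to 3.89) and 3.12 (2.64 to 3.58). These ratios rested largely on the same few cells in EL1, and only in part in WTg. Of the 38 Tk1 UMIs in EL1 macrophage-like cells 32 came from 2 cells with at least 30 UMIs of Top2a and Mki67, and of the 50 in WTg 32 came from 1 such cell. The other 39 WTg macrophage-like cells held 18. Without macrophage-like cells that had a Top2a or Mki67 UMI, 2 Tk1 UMIs were left in EL1 (log2 ratio -0.030, -3.08 to 1.84) and 10 in WTg (1.43). The cells that these were set against still included cycling ones, where Tk1 was higher. Among cells with at least 3 UMIs of Top2a and Mki67, Tk1 was at 349 CPM in the 2 macrophage-like cells and 14.6 CPM in 308 other cells of EL1, and at 199 CPM in 4 and 10.7 CPM in 283 of WTg. The log2 ratios were 4.58 (4.002 to 5.12) and 4.21 (3.66 to 4.74). The macrophage-like cells as a whole held 12.3% of the Tk1 UMIs of EL1 and 20.8% of those of WTg. The doublet caller Scrublet marked 2 barcodes in EL1 and 3 in WTg, of which 1 in WTg was macrophage-like. It marked 0 of the 3 cells with at least 30 UMIs of Top2a and Mki67. Among those 3 were the deepest macrophage-like cells of each library, at 58783 UMIs in EL1 and 67147 in WTg. Whether they are single cells was not tested further. With the marked barcodes removed the Tk1 ratios over all macrophage-like cells were 3.39 and 3.16.

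**Figure D5:**
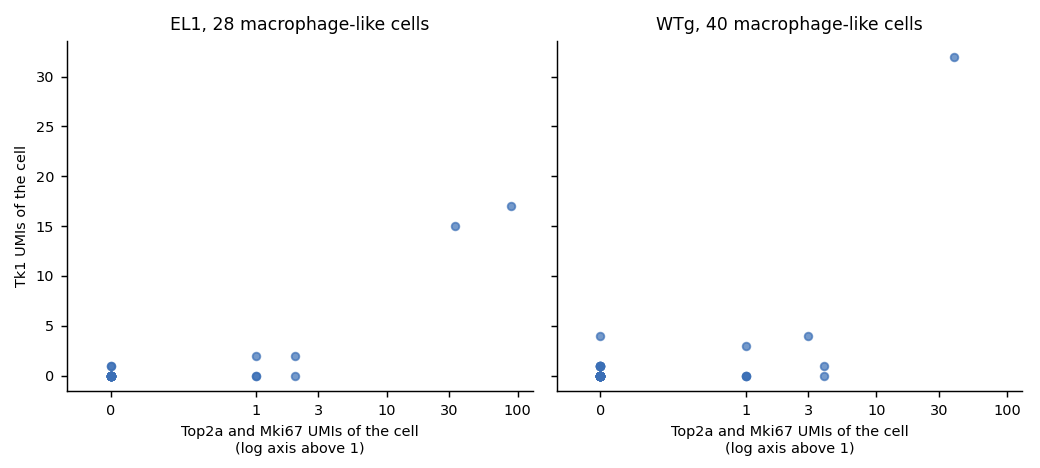
Tk1 UMIs (y axis) against the summed Top2a and Mki67 UMIs (x axis, log above 1) of each macrophage-like cell, EL1 left and WTg right; many cells overlap at the origin. The cells at the right, 2 in EL1 and 1 in WTg, hold 32 Tk1 UMIs in each library.

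Detection in single cells was compared at 1 depth, after thinning each cell to 2000 UMIs, which left out 62 EL1 and 69 WTg cells. At least 1 molecule of the 41 genes was then seen in 86.7% of 1051 EL1 cells and 86.4% of 836 WTg cells, but the median gene was seen in only 5.90% and 5.62% of cells, against 50.9% and 47.8% without thinning. Pcna was seen in 30.3% (26.5 to 34.4%) of cycling and 14.7% (11.8 to 18.1%) of non-cycling EL1 cells, and in 28.9% (24.8 to 33.4%) and 16.2% (12.6 to 20.2%) in WTg. In macrophage-like cells, Pcna was seen in 20% (6.83 to 40.7%) and 17.1% (6.56 to 33.6%), so its share in non-cycling cells was not above theirs. Mcm6 was seen in 20.2% of cycling and 13.5% of non-cycling EL1 cells and in 25.8% and 18.5% in WTg, against 8% (0.984 to 26.0%) and 5.71% (0.6997 to 19.2%) of macrophage-like cells.

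All 41 genes were found by identifier in GENCODE M21 on GRCm38. Among those the results turn on, Mcm6 lies at chr1:128331590-128359664, Pcna at chr2:132249162-132253314 and Tk1 at chr11:117815526-117826092, each on the minus strand, and Cdt1 at chr8:122568015-122573554 on the plus strand. Summed UMIs come from the 3′ ends of transcripts and so do not depend on gene length, but capture differs between genes and no order of genes by level is drawn. Of the 41, 1 gene, Chaf1b, was overlapped on its own strand by a gene of the count tables, Gm49617, and 14 on the opposite strand, among them Tk1 by Afmid, Gins2 by Gse1, Orc1 by Gm12743 and Rfc5 by Wsb2. How reads over such overlaps were assigned is not given in the sources used here, so the values of these genes carry that uncertainty.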

How the data were processed

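The deposited files hold UMI counts for every gene in every barcode, made by the authors from 10x Chromium 3′ v3.1 libraries of viable, sorted tumour cells with Cell Ranger (6.0.2 in the matrix header). Per the labels, the build was GRCm38, and R 4.1 and Seurat 4.0.5 were used. The sparse matrices were used, and dense tables of a subset of the same barcodes were not used here. The counting of intronic reads and of strand is not given in the sources used here.

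Cells were kept from 500 genes and 1000 UMIs upward where mitochondrial genes took no more than 20% of UMIs. UMIs were summed over the cells of a class and given as CPM of all their UMIs with exact Poisson intervals. Log2 ratios had exact conditional binomial intervals, shares Clopper-Pearson ones, and a count of 0 was replaced by 3 and is a bound. With 1 library per group no test was made. Clusters came from scanpy 1.11.5 (2000 variable genes, 30 components, 15 neighbours, leidenalg 0.10.2 at resolution 1) without replication, cell cycle or Mettl3 genes. TMM factors came from edgeR 4.0.16. On simulated counts of 16167 genes for WTg over EL1 in all cells, all 199 changed genes that were tested took the simulated direction. Intervals covered the simulated ratio for 95.9% of the genes. The counts were drawn as Poisson, as the intervals assume, so this checks the calculation and says nothing of variation between cells or libraries.

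The genes given in full were, by a fixed rule, Pcna, Mcm2 to Mcm7, the gene with most UMIs in each other role, and, among genes with at least 50 UMIs, the 3 highest and 3 lowest in WTg over EL1 in cycling cells and in the smaller of the cycling ratios, with the same rule for the 47 further genes. Other genes are named as examples of their role and were chosen after their values were seen. The genes, the lists and this rule were chosen with earlier results of these data known. The sensitivity settings covered cell filters, doublets, gates, weighting, scaling, minimum counts and clustering. They did not cover the split by Cdc20 and Ccnb1.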

Additional observations from a re-analysis of the deposited data

How the results depend on the processing

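The median of the 41 genes for WTg over EL1 moved to 0.077 over all cells and 0.11 in cycling cells under TMM scaling, and to -0.11 in cycling cells when the gate was read after thinning to 2000 UMIs. The cycling over non-cycling median of WTg became 1.14 when both Top2a and Mki67 were required, and the genes past 2-fold then numbered 29 in EL1 and 25 in WTg, against 19 and 16, and 13 and 10 under the thinned gate. The macrophage-like medians became -1.85 and -2.03 without cells that had a Top2a or Mki67 UMI, with zeros set at their bound, and the genes lower by 2-fold 28 and 33, against 17 and 28. The share of cycling cells became 27.9% in EL1 and 31.7% in WTg at 3 or more UMIs, 25.5% and 27.2% with both genes, 19.1% and 21.8% after thinning, and 55.2% in WTg under the stricter cell filter. The median share of cells with a UMI was 15.4% and 13.1% at 5000 UMIs and 50.9% and 47.8% unthinned. These changes follow from the settings' own construction or their cause was not tested. Shares over all genes past 2-fold were not taken under the changed settings, so those counts have no such share beside them.

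Values of single genes turned sign in 106 cases over all settings, 29 of them under TMM scaling, 24 with cells weighted equally and 22 with the thinned gate. In 87 of the 106 the counting interval of the reported value held 0, Orc1 in cycling over non-cycling WTg cells among them. The other 19 follow. With each cell weighted equally, Mcm6 (0.042) and Rrm1 (0.038) turned over all cells and Pola1 (-0.13) in cycling cells. Under TMM scaling, Mcm6 (0.071), Rfc3 (0.00757) and Rrm1 (0.030) turned over all cells, Rrm1 (0.0049) and Tyms (0.057) in cycling cells and Mcm6 (0.00125) in non-cycling cells. With the thinned gate, Mcm5 (-0.058), Pold1 (-0.00062) and Rfc4 (-0.011) turned in WTg over EL1, and Mcm2 (-0.083), Mcm4 (-0.065) and Mcm6 (-0.083) in EL1 and Cdt1 (-0.044), Mcm2 (-0.10) and Mcm6 (-0.18) in WTg in cycling over non-cycling. Tk1 turned in EL1 macrophage-like cells (-0.030) without those with a Top2a or Mki67 UMI. Apart from these 19, 2429 values lay within their limit and 281 outside it, whether or not the sign was kept. These counts hold single genes, with the counting interval of the reported value as limit, and also medians of the further genes. For those medians the limit was a fixed distance from the reported value. No paired analysis was possible because EL1 and WTg were read as 1 library apiece. Depth limits the genes of few UMIs, such as Orc1 and Gins3, and nothing here has a replicate.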
